A study of Mus musculus with 23 samples.

Results

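The Cyp4 genes described here are 8 members of the cytochrome P450 family that hydroxylates fatty acids, namely Cyp4a10, Cyp4a14, Cyp4a31, Cyp4b1, Cyp4f13, Cyp4f14, Cyp4f16 and Cyp4v3. Every probe set that the platform annotation gives to one of them was taken, alone or with other genes, with older names matched by Entrez number. This gave 9 probe sets of 23099 that carry at least 1 gene name. Of these, 6 name a single gene and 3 are shared, namely 1 of Cyp4a31 and Cyp4a10, 1 of Cyp4a32, Cyp4a31 and Cyp4a10, and 1 of Cyp4v3 and its neighbour Klkb1, which encodes plasma prekallikrein. Cyp4a10 has no probe set of its own, and the probe set named for Cyp4a31 alone shares a transcript record with the Cyp4a31 and Cyp4a10 probe set, so signals of these near-identical genes cannot be told apart.

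Gene expression was measured with Affymetrix arrays in colon scrapings of 23 male mice, which were 7 to 9 weeks old at the start and spent 14 days on their diet. WT mice of strain 129S1/SvImJ received a Westernized control diet (n = 5) or this diet with 0.5 µmol heme per g (n = 6). PPARα KO mice of strain 129S4/SvJae-Pparatm1Gonz/J received the control diet (n = 6) or the heme diet (n = 6). Fat made up 40% of the energy of either diet, and calcium was low at 30 µmol per g. The disruption in KO mice lies in the ligand-binding domain of PPARα and is present in all tissues. Because WT and KO mice belong to different substrains, a difference between them in substrain and one in PPARα cannot be told apart. Scrapings of the proximal and distal colon were pooled per mouse, and the array of 1 further WT control mouse was left out by the study for its quality.

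Cyp4 enzymes are heme-containing monooxygenases of the endoplasmic reticulum that hydroxylate the methyl end, or ω-carbon, of fatty acids and eicosanoids. Alcohol and aldehyde dehydrogenases turn the product into a dicarboxylic acid, which is shortened by β-oxidation in peroxisomes. The nuclear receptor PPARα binds fatty acids and pairs with RXR on DNA, and the Cyp4a genes are its classical target genes in liver and kidney. The comparisons ask whether dietary heme changes these genes in the colon and whether PPARα is needed for the change.

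Values are linear signals, that is, 2 to the power of the deposited log2 values, and they are compared only within a probe set. A probe set counted as called when its p in limma, adjusted after Benjamini and Hochberg over all 23099 named probe sets, was under 0.01, with a mean signal above 20 in at least 1 group compared. Ppara, the disrupted gene, had signals of 444 to 560.2 in WT control mice and 240.0 to 378 in KO control mice, and of 344 to 475 and 163 to 238 on heme, without overlap between the genotypes on either diet. Whether its probes lie in the disrupted stretch is not known here, so this check of the labels is limited. All 8 surface colonocyte markers examined were above the minimum signal in every group, among them the keratin Krt20 and the anion exchanger Slc26a3. Of these 8 markers, 3 rose and 1 fell on heme in WT mice and 3 rose in KO mice. Of the smooth muscle markers 7 of 8 were called lower on heme in WT mice and none in KO mice, although all 8 had log2 fold changes below 0 in both genotypes (median -1.31 and -0.61). All 8 were also below 0 for KO against WT mice on the control diet (median -0.70), none of them called. These markers had a summed signal of 5101 to 14899 in WT control and 2889 to 4572 in WT heme mice, and of 2638 to 7225 and 2597 to 4738 in KO mice. Among 5 crypt and dividing cell markers 2 rose in each genotype and 3 fell in KO mice. Of the measured fibroblast markers none was called, of the leukocyte markers 1 fell and of the adipocyte markers 1 rose in each genotype, and no marker was called between genotypes. In bulk tissue, fewer cells of a type and less RNA per cell cannot be told apart.

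Over the 9 probe sets, heme raised 3 and lowered 1 in WT mice, where 17.3% of all named probe sets were called, 9.35% higher and 7.92% lower. The 3 that rose are those of Cyp4a10 and Cyp4a31, whose signals cannot be told apart, so they do not count as separate genes. The one named for Cyp4a31 alone passed the signal minimum only through WT heme mice. In KO mice none rose and 1 fell, against 18% of all called, 9.2% higher and 8.81% lower. Of the 9, 8 passed the signal minimum in WT and 7 in KO mice. The groups did not overlap for the same 3 probe sets that rose and the 1 that fell in WT mice, where 8.1% of all lay wholly higher and 6.8% wholly lower on heme. In KO mice 2 lay wholly higher and 1 wholly lower, against 7.54% and 6.39% of all. The 2 that lay higher are shared by Cyp4a10 and Cyp4a31 and do not count as separate genes either. The 9 had a median log2 fold change on heme of 0.38 in WT mice and 0.19 in KO mice, beside -0.0088 and -0.0052 over all named probe sets.

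KO and WT mice on the control diet differed in none of the 9 by these criteria, with 0.0693% of all called. An unadjusted p under 0.05 was found for 3 of the 9 in limma, against 1310 of the 23099. These are Cyp4b1 and the shared Cyp4a probe sets, whose signals cannot be told apart. The two-way test on linear signal also called none. It pools the spread of all groups, which was widest in WT heme mice for the probe sets of Cyp4a10 and Cyp4a31, so it says little about them here. The KO mice lay wholly below WT mice for 1 of the 9, against 0.442% of all. On the heme diet 3 of the 9 were called and all 3 were lower in KO mice, without overlap. Of all, 0.247% were called, 0.104% were called lower and 0.442% lay wholly lower. These 3 are again the probe sets of Cyp4a10 and Cyp4a31, which do not count as separate genes.

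**Figure D1:**
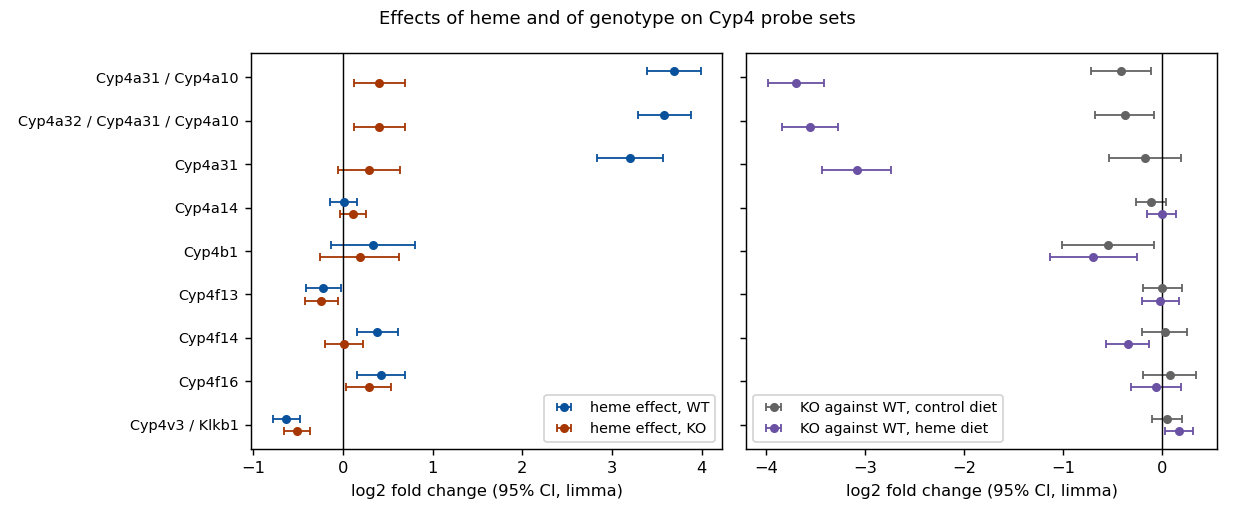
Log2 differences with 95% confidence intervals from limma for the 9 Cyp4 probe sets, with heme over control diet in WT and KO mice at the left and KO over WT mice on each diet at the right (n = 5 WT control and 6 in the other groups). The 3 induced Cyp4a probe sets lie far above 0 for heme in WT mice, with 3.69 for Cyp4a31 and Cyp4a10, and between 0.29 and 0.41 in KO mice, while Cyp4v3 with Klkb1 lies below 0 in both.

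The probe sets of Cyp4a10 and Cyp4a31 rose 9.21- to 12.9-fold on heme in WT mice, while the related Cyp4a14 stayed below the minimum signal in all groups. Cyp4a10 and Cyp4a31 encode fatty acid ω-hydroxylases and lie next to each other on chromosome 4, with Cyp4a14 before them and Cyp4a32 and Cyp4b1 after them. The Cyp4a31 and Cyp4a10 probe set had signals of 43.9, 38.8, 53.0, 52.5 and 45.1 in the 5 WT control mice. In WT heme mice its lowest signal was 410.0, its median 603 and its highest 945. All WT heme mice thus lay far above all WT control mice. The fold change was 12.9 (95% CI 10.5 to 15.9, log2 fold change 3.69, SE 0.145, adjusted p = 5.07e-14 from limma).

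The probe set shared with Cyp4a32 rose 12.0-fold (95% CI 9.75 to 14.8, adjusted p = 5.69e-14 from limma), from 28.4, 22.5, 30.6, 28.4 and 22.1 in WT control mice to a lowest signal of 209.8, a median of 301 and a highest of 507 in WT heme mice. The probe set named for Cyp4a31 alone had signals of 14.0, 10.2, 11.8, 10.7 and 9.88 in WT control mice, all below the minimum. On heme its WT signals had a lowest value of 80.9, a median of 93.3 and a highest of 214. WT heme replicate 2 had the highest signal in all 3 of these probe sets, and for Cyp4a31 it lay far above the other 5 mice. The fold change of Cyp4a31 was 9.21 (95% CI 7.15 to 11.9, adjusted p = 1.76e-11 from limma). Its control level was below the minimum, so this fold can understate the difference. The probe set passed the signal minimum only through the heme-fed WT mice.

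**Figure D2:**
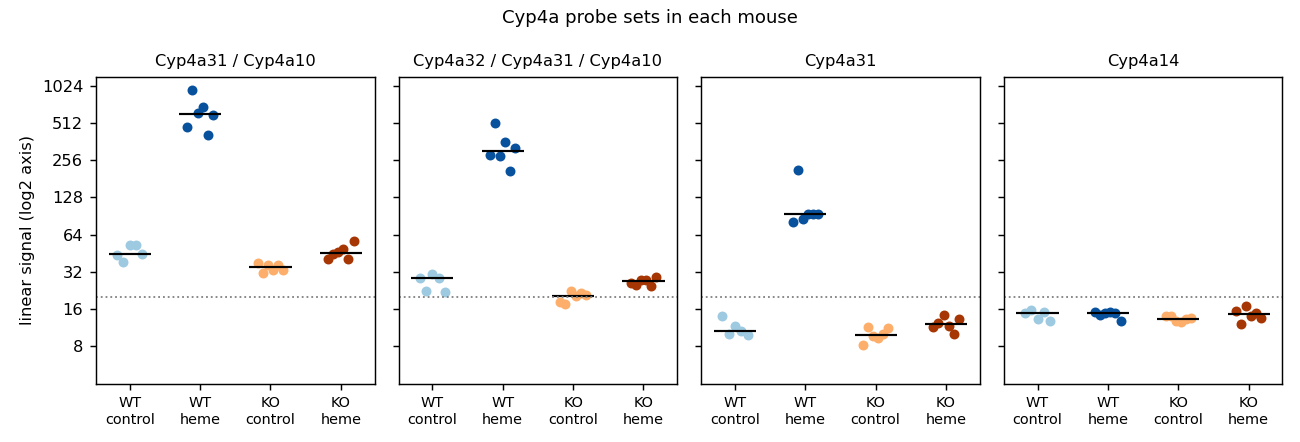
Linear signal (log2 axis) of the 4 Cyp4a probe sets in each mouse (points) with the group median (bar), for WT control (n = 5), WT heme, KO control and KO heme mice (n = 6 each). The dotted line is the minimum signal of 20, and the first 3 panels show WT heme mice far above every other group, whereas Cyp4a14 lies below the line in all groups.

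In KO mice the same 3 probe sets changed little, but not in every case within the spread of the mice. The Cyp4a31 and Cyp4a10 probe set ran from 31.3 to 38.0 with a median of 35.0 in KO control mice, and from 40.7 to 57.0 with a median of 45.7 in KO heme mice. All 6 KO heme mice lay above all 6 KO control mice. The fold change was 1.33 (95% CI 1.09 to 1.62), with an adjusted p of 0.0296 from limma, so it was not called. The probe set shared with Cyp4a32 behaved alike, with 17.7 to 22.6 in KO control and 24.4 to 29.3 in KO heme mice, and the same fold change of 1.33 (95% CI 1.09 to 1.62, adjusted p = 0.0292 from limma). Both were called when the 2 KO groups were fitted without the WT mice (adjusted p = 0.0024 and 8e-04 from limma). Over all alternatives these adjusted p-values ran from 0.0024 to 0.914 and from 8e-04 to 0.91, the highest in the two-way test on linear signal. That test pools the linear spread of all groups. For the Cyp4a31 and Cyp4a10 probe set the SD was 187 in WT heme mice, against 2.58 in KO control and 6.07 in KO heme mice. The two-way result thus says little about a change in KO mice. Both probe sets were also called without WT heme replicate 2 (adjusted p = 0.00706 and 0.00518 from limma). That array enters this comparison only through the shared estimate of the spread. Cyp4a31 alone went from 8.29 to 11.4 in KO control to 10.1 to 14.5 in KO heme mice, below the minimum signal in both groups, with overlap.

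The heme response of these 3 probe sets differed between the genotypes. The difference of the log2 heme effects, KO minus WT, was -3.28 (SE 0.201, adjusted p = 1.1e-09 from limma) for the Cyp4a31 and Cyp4a10 probe set, -3.18 (SE 0.200, adjusted p = 1.1e-09) for the one shared with Cyp4a32 and -2.91 (SE 0.244, adjusted p = 2.43e-07) for Cyp4a31. Among all named probe sets 4 were called for this difference (0.0173%), and 3 of them are these Cyp4a probe sets, whose signals cannot be told apart. Of these, Cyp4a31 passed the minimum signal only through WT heme mice, with means of 12.3 or less in the other 3 groups, so the size of its difference is uncertain. The remaining one belongs to Fabp1, the liver-type fatty acid binding protein. In a two-way test on linear signal none of the 3 was called (adjusted p = 0.023, 0.023 and 0.209 in the order above, the highest over all alternatives, against a lowest of 4.2e-11 for each).

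On the heme diet KO mice had 13.0-fold lower signals than WT mice for the Cyp4a31 and Cyp4a10 probe set (adjusted p = 3.48e-14 from limma), 11.8-fold lower for the one shared with Cyp4a32 (adjusted p = 3.6e-14) and 8.48-fold lower for Cyp4a31 (adjusted p = 2.86e-11). The KO heme mice averaged 12.3 for Cyp4a31, below the minimum signal, so this fold can understate the difference. No KO heme mouse overlapped a WT heme mouse in any of them. On the control diet all 6 KO mice, at 31.3 to 38.0, lay below all 5 WT mice, at 38.8 to 53.0, for the Cyp4a31 and Cyp4a10 probe set. The difference was 1.33-fold and was not called (adjusted p = 0.705 from limma). The median signal of KO mice on heme was 45.7, and that of WT mice without heme was 45.1.

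With each mouse's smooth muscle signal as a covariate, the WT heme effect (log2) was 3.49 for both shared Cyp4a probe sets. It was 3.19 for Cyp4a31. The summed smooth muscle signals of WT control and WT heme mice did not overlap, so this fit cannot fully separate diet from smooth muscle signal in WT mice. The surface colonocyte markers summed to 31854 to 34448 in WT control and 34464 to 37534 in WT heme mice, and to 33229 to 35347 and 35246 to 40454 in KO mice. The part of these surface markers in the results was not tested.

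Cyp4a14, a lauric acid ω-hydroxylase and a strong PPARα target in liver, stood at 12.9 to 15.9 in WT control, 12.8 to 15.3 in WT heme, 12.5 to 14.2 in KO control and 12.3 to 16.9 in KO heme mice. The 95% CI of its fold change on heme was 0.907 to 1.12 in WT and 0.980 to 1.19 in KO mice. At a signal below the minimum, a change could be hidden by background.

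RefSeq promoter sequences (assembly GRCm38.p6) were at hand for Cyp4a32, whose probes share the induced signal, and for 5 of the 8 members (Cyp4b1, Cyp4f13, Cyp4f14, Cyp4f16 and Cyp4v3). The 250 bases before the start site are printed for Cyp4a32 and for Cyp4b1, the next gene on the chromosome, which was not called on heme.
Cyp4a32 (chr4:115600688-115600937, + strand): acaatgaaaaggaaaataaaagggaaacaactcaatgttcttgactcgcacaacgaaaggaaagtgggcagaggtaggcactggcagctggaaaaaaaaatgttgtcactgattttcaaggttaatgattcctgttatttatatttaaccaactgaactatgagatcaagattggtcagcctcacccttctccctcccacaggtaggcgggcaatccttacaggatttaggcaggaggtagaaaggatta
Cyp4b1 (chr4:115647722-115647971, - strand): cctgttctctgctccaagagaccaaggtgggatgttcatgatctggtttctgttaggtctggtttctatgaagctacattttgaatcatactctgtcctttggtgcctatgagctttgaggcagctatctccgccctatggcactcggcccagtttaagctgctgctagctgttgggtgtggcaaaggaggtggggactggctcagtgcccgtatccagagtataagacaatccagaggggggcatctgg
A PPAR-RXR element, a direct repeat of AGGNCA with 1 free base between the copies (N is any base), was searched on both strands, as was the single unit AGGTCA, which can overlap the element. Neither was found in these 2 windows nor in the 8 windows of the 5 members, so no letters are in capitals. Of 32851 such windows 0.338% held the repeat and 14.0% the single unit. The letters being absent from these windows says nothing about binding elsewhere.

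Cyp4b1, a P450 of lung and other epithelia that also activates foreign compounds, was variable between mice. Its signals were 1006, 818, 1447, 1324 and 1474 in WT control mice, and in WT heme mice the lowest was 1151, the median 1472 and the highest 1873. KO control mice had a lowest signal of 546, a median of 828 and a highest of 1232, and KO heme mice 513, 925 and 1491. The KO groups were thus lower on average, but they overlapped the WT groups on both diets. The log2 difference of KO from WT was -0.55 (95% CI -1.01 to -0.0819, adjusted p = 0.814 from limma) on the control diet and -0.69 (95% CI -1.14 to -0.25, adjusted p = 0.146) on the heme diet. On heme, Cyp4b1 had a log2 fold change of 0.33 (95% CI -0.13 to 0.80) in WT and of 0.19 (95% CI -0.25 to 0.63) in KO mice, neither of which was called. With the smooth muscle covariate these values turned to -0.18 and -0.0371.

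Cyp4f enzymes hydroxylate leukotrienes and other eicosanoids and fatty acids. The members Cyp4f13, Cyp4f14 and Cyp4f16 were well above the minimum signal. Cyp4f14, which also starts the breakdown of vitamin E in liver, had signals of 1028, 1053, 1443, 1297 and 1156 in WT control mice. In WT heme mice it had a lowest of 1271, a median of 1565 and a highest of 1807. The WT groups overlapped in part, and the fold change of 1.31 fell just outside the threshold (log2 fold change 0.38, SE 0.109, adjusted p = 0.0103 from limma). It was called with array weights, with arrays centred on their median and without WT control replicate 3, WT heme replicate 1, KO heme replicate 1 or KO heme replicate 3, whereas with the smooth muscle covariate its value was 0.13. The adjusted p ran from 0.00232 to 0.568 over these alternatives. In KO mice Cyp4f14 ran from 1079 to 1380 on the control and from 958 to 1518 on the heme diet, with a log2 fold change of 0.0116 (95% CI -0.20 to 0.23). The difference of the heme effects between KO and WT was -0.37 (95% CI -0.68 to -0.0613, adjusted p = 0.656 from limma), which was not called.

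Cyp4f16 had signals of 546, 519, 506, 599 and 510.4 in WT control mice and, on heme, a lowest of 549.8, a median of 708 and a highest of 1077. In KO mice it ran from 524 to 616 on the control and from 560.3 to 819.9 on the heme diet. Heme-fed mice of both genotypes were mostly higher, with overlap. For WT mice the log2 fold change of Cyp4f16 was 0.42 (SE 0.128, adjusted p = 0.0166 from limma), and for KO mice it was 0.29 (SE 0.122, adjusted p = 0.0856), neither of which was called. In WT mice it was called after centring each array (adjusted p = 0.00764 from limma), with the replicate number as a block (adjusted p = 0.00794) and without WT heme replicate 1 (adjusted p = 0.00546), and the adjusted p reached 0.22 with the smooth muscle covariate.

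Cyp4f13 tended the other way. It had signals of 844, 878, 952, 909 and 895 in WT control and 583 to 913 in WT heme mice, and of 818 to 989 in KO control and 643 to 944 in KO heme mice. On heme, Cyp4f13 had a log2 fold change of -0.22 (95% CI -0.41 to -0.0226, adjusted p = 0.0922 from limma) in WT and of -0.24 (95% CI -0.43 to -0.0551, adjusted p = 0.0475) in KO mice. Neither passed the threshold, although the KO value did without KO heme replicate 3 (adjusted p = 0.00964 from limma, against up to 0.137 in other alternatives). KO and WT mice overlapped in both Cyp4f13 and Cyp4f16 on either diet, with log2 differences of 0.0036 and 0.0770 on the control diet and -0.0199 and -0.0579 on the heme diet.

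**Figure D3:**
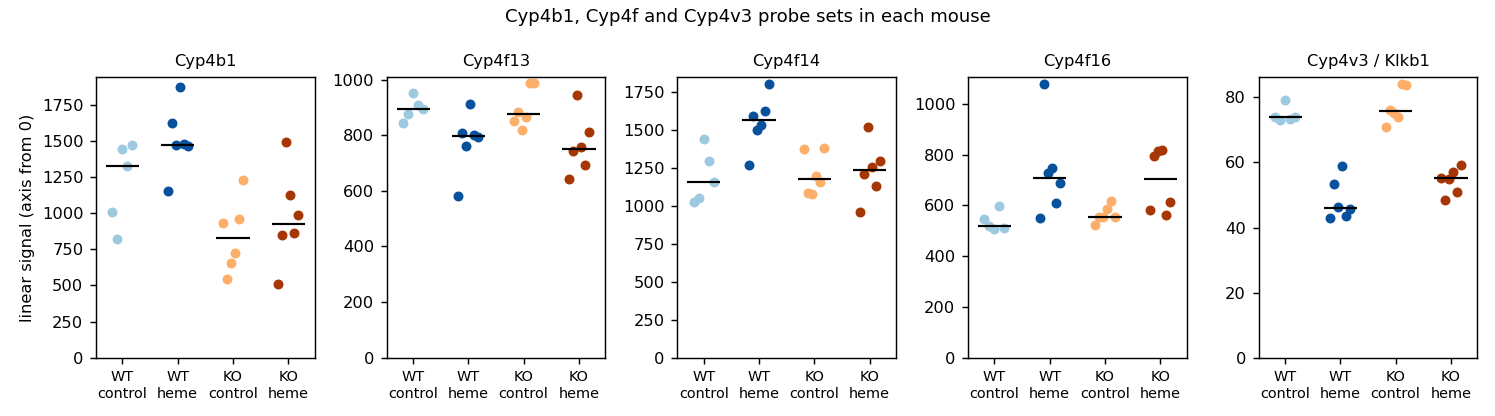
Linear signal (axis from 0) of the Cyp4b1, Cyp4f13, Cyp4f14, Cyp4f16 and Cyp4v3 probe sets in each mouse (points) with the group median (bar), for WT control (n = 5), WT heme, KO control and KO heme mice (n = 6 each). Cyp4v3, shared with Klkb1, is the one in which all heme-fed mice of either genotype lie below all control mice.

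Cyp4v3, the mouse counterpart of the fatty acid hydroxylase that is defective in the human eye disease Bietti crystalline dystrophy, fell on heme in both genotypes. The probe set shared with Klkb1 had signals of 74.0, 73.1, 79.1, 73.2 and 73.9 in WT control mice and from 43.0 to 59.0 with a median of 45.9 in WT heme mice. In KO mice it ran from 70.9 to 84.1 with a median of 75.7 on the control diet and from 48.4 to 59.2 with a median of 55.1 on heme. Heme-fed and control mice did not overlap in either genotype. It fell by 0.63 on the log2 scale in WT mice (SE 0.0729, adjusted p = 1.54e-06 from limma) and by 0.51 in KO mice (SE 0.0695, adjusted p = 1.07e-05). With the smooth muscle covariate the WT value was -0.64. The difference of the heme effects was 0.12 (95% CI -0.0876 to 0.33, adjusted p = 0.856 from limma). Which of Cyp4v3 and Klkb1 carries the signal cannot be told from this probe set.

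Of 12 other Cyp4 genes 9 were measured, of which Cyp4a32 only through the shared probe set above. None of the other 8 was called in any comparison. Cyp4f40 had mean signals between 679 and 800.1 in the 4 groups, with log2 fold changes on heme of 0.14 in WT and 0.17 in KO mice. Cyp4f18, the leukotriene hydroxylase of neutrophils, stood at 36.5 to 47.3 on average in the 4 groups. Cyp4a12a and Cyp4a12b, which are androgen-dependent in kidney and liver, had mean signals of 5.97 to 7.06, below the minimum.

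The genes with the profile most like the induced Cyp4a probe sets were ranked by Pearson correlation of log2 values over the 23 arrays, among 16332 single-gene probe sets above the minimum. Fabp1 came first for all 3 (r = 0.969 for Cyp4a31 and Cyp4a10, 0.969 for the one shared with Cyp4a32 and 0.957 for Cyp4a31). Its mean signal was 25.7 ± 2.33 (SD, n = 5) in WT control, 463 ± 213 (SD, n = 6) in WT heme, 34.1 ± 16.8 (SD, n = 6) in KO control and 27.4 ± 3.32 (SD, n = 6) in KO heme mice. Pank1, a pantothenate kinase of coenzyme A synthesis, was the next in each case (r = 0.939 to 0.942). It had 449 ± 8.92 in WT control, 571 ± 27.0 in WT heme, 428 ± 20.4 in KO control and 453 ± 23.8 in KO heme mice. The respiratory chain subunit Uqcr11 (0.877 to 0.880) and the peroxisomal membrane protein Tmem135 (0.864 to 0.906) followed among the first 5 for all 3 probe sets, Ehhadh for the first, Cenpl for the second and D630045J12Rik for Cyp4a31. For the Cyp4v3 and Klkb1 probe set the first 5 were Kmt2c, Pde4d, Zdhhc14, Ctss and Ivns1abp (0.960 to 0.966). The arrays fall into 4 groups that share diet and genotype, so the points are not independent and no p is given.

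Genes of the steps around ω-hydroxylation were described from lists written for this purpose. Beside their counts, 9.35% of all named probe sets were called higher and 7.92% lower on heme in WT mice. In KO mice these shares were 9.2% and 8.81%. Of 5 carriers of electrons to P450s, 4 were measured. Cyb5b, the cytochrome b5 of the outer mitochondrial membrane, rose on heme in both genotypes (log2 fold change 0.35 in each), and Cyb5a, the microsomal one, was called in WT mice (0.26) and had 0.11 in KO mice (adjusted p = 0.095 from limma). Of 9 alcohol and aldehyde dehydrogenases 3 rose and 1 fell in WT mice, and 2 rose and 1 fell in KO mice. Aldh9a1 rose by 0.90 and 0.80 on the log2 scale in WT and KO mice and Aldh1a1 by 0.56 and 0.61, whereas Adh1, the class I alcohol dehydrogenase, fell by 0.51 and 0.39. Aldh3b1 was called in WT mice (0.31). Aldh3a2, the fatty aldehyde dehydrogenase, had 0.13 in both (adjusted p = 0.0707 and 0.0502 from limma).

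Of 12 genes of activation, peroxisomal import and β-oxidation of dicarboxylic acids 10 were measured, and 9 rose in WT and 7 in KO mice with none lower. Their median log2 fold change was 0.56 and 0.47. Over all named probe sets 9.35% were called higher in WT and 9.2% in KO mice. Acaa1b, a peroxisomal thiolase, rose by 1.36 in WT and 1.41 in KO mice, Acot4, a thioesterase for dicarboxylic acyl-CoA, by 1.11 and 1.02, and Abcd3, the peroxisomal importer of these substrates, by 0.63 and 0.66. Ehhadh, the bifunctional enzyme that handles dicarboxylic acids, rose by 1.07 in WT and by 0.55 in KO mice, and was lower in KO than in WT mice on heme (-0.60, adjusted p = 0.00712 from limma). The acyl-CoA synthetase Slc27a2 was called in WT mice (1.05) and had 0.57 in KO mice (adjusted p = 0.0686 from limma). No gene of these 3 lists was called for a difference of the heme effects between the genotypes. Ppara itself was called lower on heme in KO mice (-0.63, adjusted p = 9.997e-05 from limma) and had -0.26 in WT mice (adjusted p = 0.0903). It was also called lower in KO than in WT mice on the control and heme diets (adjusted p = 0.00438 and 1.54e-06 from limma). Ppard, Pparg, Rxra and Rxrb, the other receptors, were called in no comparison.

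**Figure D4:**
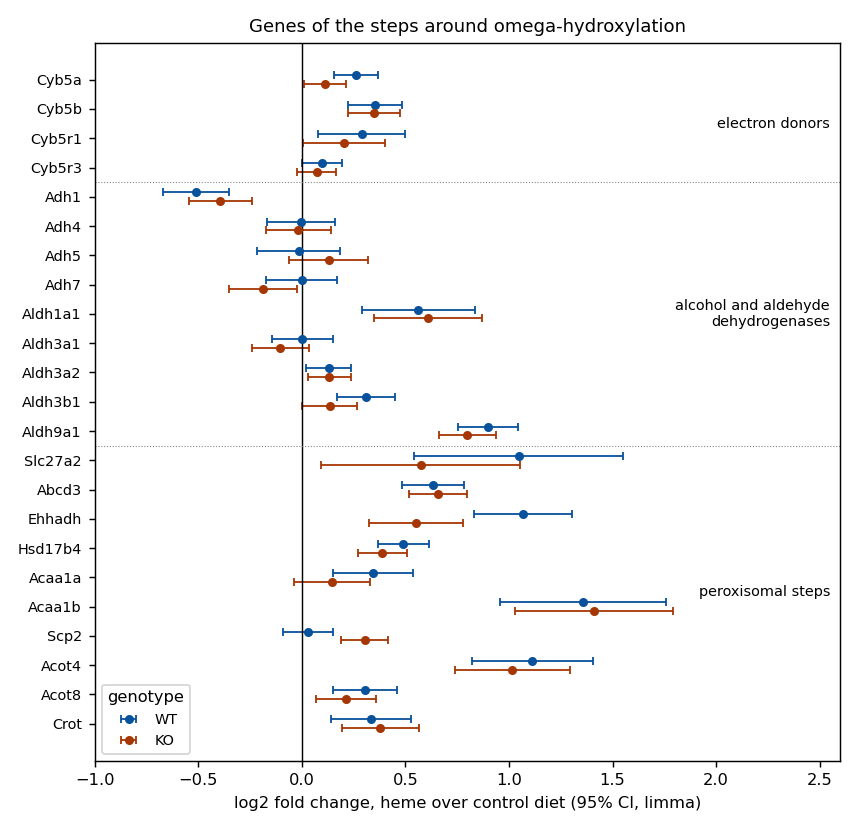
Log2 ratio of the heme to the control diet with 95% confidence intervals from limma in WT mice (n = 6 and 5) and KO mice (n = 6 and 6) for measured genes of the electron donors, the alcohol and aldehyde dehydrogenases and the peroxisomal steps. Most peroxisomal genes lie above 0 in both genotypes, with Acaa1b at 1.36 and 1.41, while Adh1 lies below 0 in both.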

How the data were processed

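Per probe set the deposited table gives log2 expression, obtained by the authors by Robust Multi-array Average from Affymetrix Mouse Gene 1.1 ST arrays. The version of that software is not given here. The study describes reorganised probe sets, whereas the rows analysed are Affymetrix transcript clusters, so that the probes behind a gene can differ. Of 35556 rows, 21218 carry 1 gene symbol, 1881 several and 12457 none. Symbols were updated by Entrez number in RefSeq (GRCm38.p6), where 21185 of the 21218 matched. Rows with several genes were kept as rows of their own, since Cyp4a10 and Cyp4v3 need them.

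The 4 groups were fitted together with limma 3.58.1 (R 4.3.3) for 5 contrasts, namely heme in WT, heme in KO, genotype on the control diet, genotype on the heme diet and the interaction of diet and genotype, with Benjamini-Hochberg adjustment over 23099 named probe sets. Thresholds (adjusted p under 0.01, mean signal above 20) are those of the study, whose text does not name the test behind its array q-values. For a gene of a list with several probe sets the brightest single-gene one was used. Python 3.11.15 and matplotlib 3.10.9 were used for the figures. The array medians were 5.80 to 5.90 on the log2 scale, and arrays correlated with their group at a mean of 0.992 to 0.996. Arrays have no read depth, and their number limits the precision. The members and lists were chosen with earlier results of these data known. Named were all members, the PPAR and RXR genes, and up to 4 called genes of each other list, with 5 for the peroxisomal list. The 5 most correlated genes of each called probe set were named too. Further genes named in the text (Aldh3a2, Krt20, Slc26a3 and other Cyp4 genes) were added after their values were seen. Genes of the lists without a named probe set were not analysed here.

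Alternatives were all probe sets, 1 value per gene, arrays centred on their median, no minimum signal, an adjusted p under 0.05 and array weights. Others were only the groups compared, a two-way test on linear signal and the replicate number as a block. The last were the smooth muscle signal as a covariate and each array left out in turn. The two-way test took the same contrasts from an ordinary linear fit with pooled spread and Benjamini-Hochberg adjustment. It lacks the main effects and Bonferroni comparisons of the study's two-way ANOVA. The labels say of replicates only that they are separate mice.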

Additional observations from a re-analysis of the deposited data

Results flagged for a closer look

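In 3 of 36 sets of mice (9 probe sets in 4 groups) 1 mouse lay far from the others of its group by Dixon's criterion, which chance gives in about 5% of groups. WT heme replicate 2 had a signal of 214 for Cyp4a31, against a next highest of 94.6. WT heme replicate 6 had 12.8 for Cyp4a14, below the minimum signal, and WT control replicate 3 had 79.1 for the Cyp4v3 and Klkb1 probe set.

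The heme response differed between WT and KO mice for 3 probe sets, with differences of the log2 heme effects (KO minus WT) of -3.28 for Cyp4a31 and Cyp4a10, -2.91 for Cyp4a31 and -3.18 for the one shared with Cyp4a32. Without any single array these stayed between -3.39 and -3.15, between -2.99 and -2.70, and between -3.29 and -3.04.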

How the results depend on the processing

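With 1 value per gene, the 3 shared probe sets have no value. Called were then 2 for heme in WT mice (Cyp4a31 and Cyp4f14) and 0 in KO mice. For heme in KO mice 2 of the 6 single-gene probe sets had an unadjusted p under 0.05 in limma. In the main fit 8727 of the 23099 named probe sets did. For KO against WT on the heme diet 1 was called and for the difference of the heme effects 1, in both cases Cyp4a31. That probe set passed the signal minimum only through WT heme mice. For heme in KO mice 4 were called at an adjusted p under 0.05 and 3 when the WT mice were left out of the fit, against 1. In both settings the shared Cyp4a probe sets were among those added, and their signals cannot be told apart. The share of all named probe sets called in these settings is not given here, so the counts lack a background. Without single arrays the count for heme in KO mice ran from 1 to 3, with 3 without WT heme replicate 2 and 2 without KO heme replicate 3. The count for heme in WT mice ran from 4 to 6 without single arrays, and the counts for KO against WT on the heme diet and for the difference of the heme effects stayed at 3. In the two-way test on linear signal none was called for the difference of the heme effects, and 4 of the 9 had an unadjusted p under 0.05. The count over all named probe sets in that test is not given here. The 3 induced Cyp4a probe sets had differences of -562, -293 and -96.7 in linear signal. The count for KO against WT on the control diet was 0 in every setting run. Replicate numbers are not said to pair mice, and the deviations of same-numbered mice correlated at -0.25 to 0.27. With the replicate number as a block 5 probe sets were called for heme in WT mice, with Cyp4f16 added, and 1, 0, 3 and 3 in the other comparisons. No called value changed its direction.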

Other observations

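Among 12 genes of Cyp2 enzymes that act on arachidonic acid and of epoxide hydrolases, 3 rose and 2 fell on heme in WT mice, and 2 rose and 3 fell in KO mice. Cyp2c66 and Cyp2c65, epoxygenases of the intestine, rose by 0.91 and 0.57 on the log2 scale in WT and by 0.87 and 0.79 in KO mice. Cyp2u1, which like Cyp4 enzymes hydroxylates the ω-end of long-chain fatty acids, fell by 0.78 in WT mice (adjusted p = 2.09e-05 from limma) and from a mean signal of 84.6 to 39.2 in KO mice (adjusted p = 1.36e-07). Ephx1, the microsomal epoxide hydrolase, fell by 0.62 and 0.70. No gene of this list was called between the genotypes or for a difference of the heme effects.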
